A study of Mus musculus with 6 samples.

Results

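The genes described here are the 8 that write, copy or remove DNA methylation, namely *Dnmt1*, *Uhrf1*, *Dnmt3a*, *Dnmt3b*, *Dnmt3l*, *Tet1*, *Tet2* and *Tet3*. They were taken by symbol from a table of 54532 mouse genes. The table gives RNA-seq of STRA8+ germ cells isolated from testis, STRA8 being a protein that germ cells make as they enter meiosis. Control libraries (n = 3) carried the genotype labelled Cre, and cKO libraries (n = 3) came from a conditional knockout labelled Srsf1 knockout, SRSF1 being a splicing factor. The labels name neither the Cre driver nor the age or number of the animals, and they give no strain, so these could not be matched between the groups here. They also do not state that the libraries came from separate animals, and the p-values below therefore measure only the spread between these libraries.

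Methylation of cytosine in CpG pairs is copied onto the new strand after replication by DNMT1, which UHRF1 brings to hemimethylated sites. New methylation is laid down by DNMT3A and DNMT3B, helped in germ cells by DNMT3L, a relative with no catalytic activity of its own. TET1, TET2 and TET3 oxidise the methyl group, which opens the way to its loss through replication or through base excision repair. In the male germ line most methylation is set in prospermatogonia before and around birth, and the cells that enter meiosis later mainly keep the pattern, while DNMT1 level is known to fall in pachytene.

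The knocked-out gene was checked first. *Srsf1* was at 84.7, 45.2 and 51.9 FPKM in Control replicates 1 to 3 and at 5.08, 4.94 and 5.17 FPKM in cKO replicates 1 to 3, where FPKM are fragments scaled to the length of the gene and to the size of the library. Its log2 fold change, cKO against control throughout, was -3.29 ± 0.22 (SE, limma adjusted p = 5.6e-05), which fits the labels. *Stra8* itself was at 244.5 ± 20.3 FPKM in the control and 272.2 ± 36.4 FPKM in the cKO (SD, n = 3), and its log2 fold change of 0.15 did not pass the test (limma adjusted p = 0.359). The libraries held 14447887 to 17310353 fragments each.

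The groups differed in their late germ cells. All 10 spermatid markers tested were lower in the cKO, and their summed level ran from 2583 to 8622 FPKM in the control libraries, Control replicate 2 being the highest, and from 8.61 to 10.4 FPKM in the cKO libraries. Of 10 pachytene markers 9 were lower, with sums of 1114 to 1303 FPKM against 239 to 267 FPKM. In these bulk samples fewer cells of a type and less RNA per cell cannot be told apart. The lists of earlier stages had smaller medians. Of 8 undifferentiated spermatogonial markers *Ret* was higher (log2 fold change 0.57) and *Id4* lower (-1.30), and 6 of the 8 were above 0, with a median of 0.22. Of 6 differentiating markers *Dmrtb1* was lower (-1.35), and of 10 early prophase markers *Spo11* (-1.01), *Rec8* (-0.56) and *Mei1* (-0.43) were lower. Of the differentiating markers 5 of 6 were above 0, with a median of 0.19, so both spermatogonial medians had the sign of the members' median (0.26). At an unadjusted p under 0.05, 2 undifferentiated and 3 differentiating markers were higher. Limma-voom called 3 and 2 higher, and quantile normalization 4 and 4. Without Control replicate 2 they were 3 and 1. The summed levels of these 2 lists and of the early prophase list overlapped between the groups. *Ret* lost its call without Control replicate 3 or cKO replicate 1 or 3 (0.52 to 0.56), and *Mei1* without Control replicate 1 or 3 or cKO replicate 1 or 3 (-0.38 to -0.41). Among somatic markers *Rhox5* (0.72) was the 1 of 6 Sertoli genes that was higher, with list sums of 37.7 to 49.2 FPKM in the control and 38.7 to 88.3 FPKM in the cKO, and it lost its call without Control replicate 1 or 2 or cKO replicate 1 or 3 (0.59 to 0.70). None of the 2 Leydig, 2 peritubular or 3 macrophage and blood genes tested was called by limma, while limma-voom called 1 Leydig and 1 peritubular gene higher, as did an unadjusted p under 0.05. The summed peritubular level was 3.69 to 6.44 FPKM in the control and 7.04 to 8.16 FPKM in the cKO, and the Leydig and the macrophage and blood sums overlapped, at 2.96 to 14.1 against 6.53 to 10.99 FPKM and 12.9 to 34.2 against 9.85 to 19.95 FPKM. No endothelial gene reached the level needed for the test. No marker of any list was at 0 in all libraries. The part of this shift in stages in the results below was not tested, and values without Control replicate 2 are given beside each member tested.

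The results showed that 5 of the 8 genes were well expressed and 3 were close to silent. In the control the order of mean levels was *Dnmt1*, *Uhrf1*, *Dnmt3b*, *Tet3*, *Dnmt3a*, *Dnmt3l*, *Tet2* and *Tet1*. *Dnmt1* at 61.6 ± 2.95 FPKM and *Uhrf1* at 57.4 ± 1.37 FPKM (SD, n = 3) had overlapping ranges, although *Dnmt1* was the higher within each control library. *Dnmt3b* followed 2.32-fold below *Uhrf1*, *Tet3* 2.43-fold below *Dnmt3b*, and *Dnmt3a* 1.61-fold below *Tet3*, all with ranges that did not overlap. A step of 20.9-fold then separated *Dnmt3a* from *Dnmt3l*, which overlapped *Tet2*. *Tet1* stood 4.65-fold below *Tet2*. In the cKO the first 5 genes kept this order, but the ranges of *Dnmt1* and *Uhrf1* came apart, and among the low genes *Tet2*, *Dnmt3l* and *Tet1* the neighbours overlapped. By FPKM *Dnmt3b* thus stood above *Dnmt3a*, and *Tet3* above the other TET genes. FPKM divides by the length of all annotated exons, 16642 bases for *Dnmt3a* and 5106 for *Dnmt3b*. In fragments *Dnmt3a* had 5152 in the control and 6364 in the cKO, and *Dnmt3b* had 6172 and 5902. The order of *Dnmt3a* and *Dnmt3b* therefore depends on the length used.

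**Figure D1:**
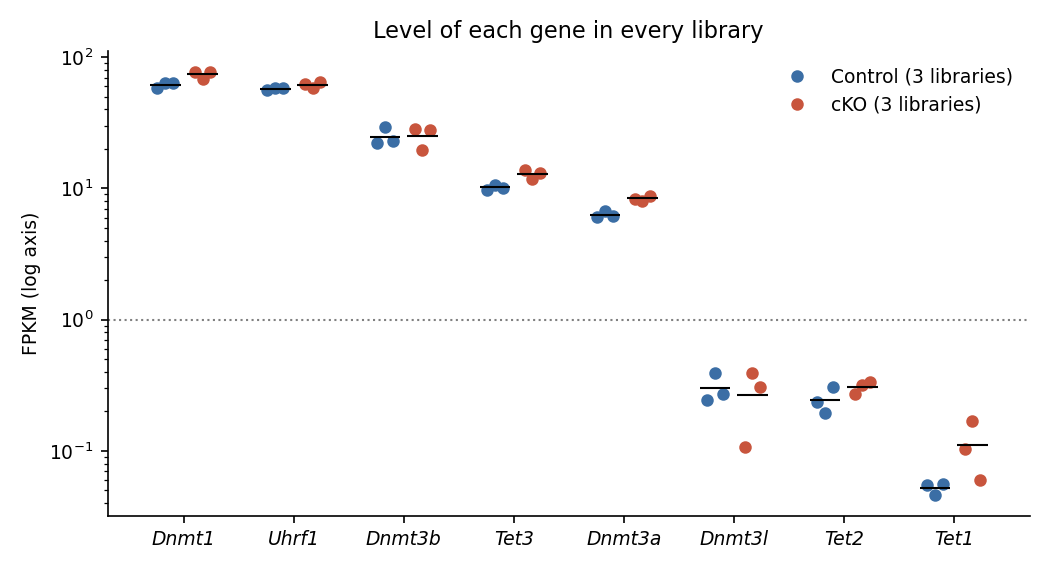
Level of each gene in FPKM (log axis) in the 3 control and 3 cKO libraries; points are libraries, bars are group means, and the dotted line is the 1 FPKM mean that a gene needed to be tested. *Dnmt1*, *Uhrf1*, *Dnmt3b*, *Tet3* and *Dnmt3a* lie above the line in every library, and *Dnmt3l*, *Tet2* and *Tet1* lie below it.

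Among the 5 genes tested, 3 rose in the cKO (*Dnmt1*, *Dnmt3a* and *Tet3*) by 1.20-fold to 1.33-fold, and none fell. Over all 15451 genes tested, 11.8% were called higher (1821 genes) and 22.2% lower (3437 genes). No member was called lower by limma, none was lower at an unadjusted p under 0.05, and none was lower with limma-voom on fragments recovered from the FPKM, which called the same number higher (3). Of the 5, the same 3 genes had all cKO libraries above all control libraries, a pattern seen in 21.8% of the genes tested. The reverse pattern, seen in 28.6%, was found in 0 of the 5. *Tet1*, which was not tested, also had all cKO libraries above, on 11 to 38 fragments per library. Of the 5, 2 were called higher without Control replicate 2, 3 without cKO replicate 2, and 0 when any of the other libraries was left out, a step that also cut the number of genes called higher over the whole table. The median log2 fold change of the 5 was 0.26, beside -0.0082 over all genes, whose quartiles were -0.37 and 0.23. All 5 log2 fold changes were above 0, but quantile normalization moved the median of all genes to 0.20 and turned the split of calls from 34.6% higher to 65.7% higher. Relative to that median the 3 called genes stayed above by 0.15 (*Dnmt1*), 0.41 (*Dnmt3a*) and 0.30 (*Tet3*), whereas *Uhrf1* at -0.0014 and *Dnmt3b* at -0.063 did not.

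**Figure D2:**
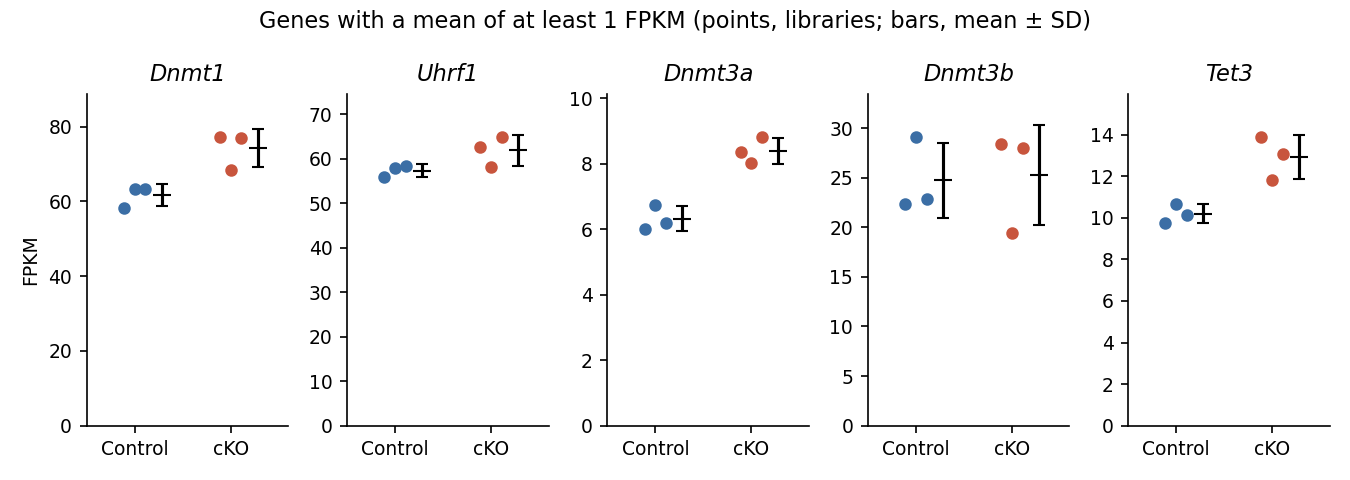
FPKM of the 5 genes that reached a mean of 1 FPKM, each on its own axis from 0; points are libraries and bars are mean ± SD (n = 3). The control and cKO points of *Dnmt1*, *Dnmt3a* and *Tet3* do not overlap, and those of *Uhrf1* and *Dnmt3b* do.

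*Dnmt1*, the maintenance methyltransferase, was at 58.2, 63.2 and 63.4 FPKM in Control replicates 1 to 3 and at 77.3, 68.3 and 77.0 FPKM in cKO replicates 1 to 3. The lowest cKO library, replicate 2, lay only a little above the highest control library. The mean rose from 61.6 ± 2.95 to 74.2 ± 5.10 FPKM (SD), a log2 fold change of 0.26 ± 0.077 (SE, 95% CI 0.081 to 0.445, limma adjusted p = 0.0369). From 7075 to 8956 fragments per library lay behind these values. The call depended on single libraries. Leaving out Control replicate 1, 2 or 3 gave log2 fold changes of 0.22, 0.28 and 0.28 (limma adjusted p = 0.115, 0.054 and 0.0779), and leaving out cKO replicate 1 or 3 gave 0.23 and 0.24 (limma adjusted p = 0.108 and 0.128). Only without cKO replicate 2 did the call stand, at 0.32 (limma adjusted p = 0.0234), and it was also lost without the intensity trend (0.0733) or without the filter on low genes (0.063).

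*Uhrf1*, whose product reads hemimethylated CpG and recruits DNMT1, was at 55.8, 57.8 and 58.4 FPKM in the control and at 62.6, 58.2 and 64.9 FPKM in the cKO. cKO replicate 2 fell inside the control range and the other cKO libraries lay above it. The mean went from 57.4 ± 1.37 to 61.9 ± 3.42 FPKM, a log2 fold change of 0.11 ± 0.067 (SE) that did not pass the test (limma adjusted p = 0.261), with a 95% CI of -0.052 to 0.266. Without Control replicate 2 it was 0.11 (limma adjusted p = 0.299). *Dnmt1* per unit of *Uhrf1*, a ratio of FPKM within each library, was 1.04, 1.09 and 1.09 in the control and 1.24, 1.17 and 1.19 in the cKO. These ratios did not overlap between the groups, and their means were 1.07 ± 0.027 and 1.20 ± 0.032 (SD, n = 3). Of the 100-base windows of *Uhrf1* transcripts 94.5% occurred in no other annotated gene, the rest being shared with *Gm5648*.

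*Dnmt3a*, a de novo enzyme also active in somatic cells, was at 6.01, 6.75 and 6.19 FPKM in the control and at 8.34, 8.01 and 8.82 FPKM in the cKO. The gap between the groups was wider than the range within either. The mean rose from 6.32 ± 0.383 to 8.39 ± 0.409 FPKM (1.33-fold), a log2 fold change of 0.36 ± 0.088 (SE, 95% CI 0.152 to 0.568, limma adjusted p = 0.0192). Without Control replicate 2 it was 0.40 (limma adjusted p = 0.0195) and without cKO replicate 2 it was 0.39 (0.0372). Without Control replicate 1 or 3 or cKO replicate 1 or 3 it was 0.33, 0.35, 0.36 and 0.33, and the call was lost (limma adjusted p = 0.0632, 0.0663, 0.0539 and 0.0822). The antisense gene *Dnmt3aos* overlaps 0.799% of the exon bases of *Dnmt3a*, and the files do not state whether strand was used in counting.

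*Dnmt3b*, the other de novo enzyme, was at 22.3, 29.1 and 22.8 FPKM in the control and at 28.4, 19.4 and 27.9 FPKM in the cKO. Control replicate 2 was the highest library and cKO replicate 2 the lowest, so the groups overlapped throughout. The means were 24.8 ± 3.79 and 25.3 ± 5.05 FPKM (SD), and the log2 fold change of 0.019 ± 0.17 (SE) had a 95% CI of -0.383 to 0.421 (limma adjusted p = 0.941). An increase of the size seen for *Dnmt1*, *Dnmt3a* or *Tet3* lies inside this interval. The value was 0.14 without Control replicate 2 and 0.19 without cKO replicate 2, and it turned negative, down to -0.072, when any other library was left out. Of its 100-base windows 95.5% occurred in no other gene, the rest being shared with *Dnmt3c*, a rodent copy that methylates young retrotransposons in male germ cells. *Dnmt3c* was listed at 0.314 ± 0.059 FPKM in the control and 0.254 ± 0.142 FPKM in the cKO and was not tested.

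*Dnmt3l*, the cofactor of de novo methylation, was at 0.244, 0.393 and 0.271 FPKM in the control and at 0.106, 0.389 and 0.308 FPKM in the cKO. These levels rested on 5 to 18 fragments per library (44 in all for the control and 36 for the cKO), and the groups overlapped (two-sided exact permutation test, p = 0.8, the smallest possible being 0.1). A difference was not detectable at this depth. *Aire*, on the other strand, shares 67 bases, 2.24% of the exon bases of *Dnmt3l*.

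*Tet3*, the TET enzyme known best from the zygote, was at 9.77, 10.7 and 10.1 FPKM in the control and at 13.9, 11.8 and 13.1 FPKM in the cKO. All cKO libraries lay above all control libraries, again with cKO replicate 2 the nearest to them. The mean rose from 10.2 ± 0.463 to 12.9 ± 1.06 FPKM (1.27-fold), a log2 fold change of 0.31 ± 0.088 (SE, 95% CI 0.105 to 0.521, limma adjusted p = 0.0322). Without Control replicate 2 it was 0.34 (limma adjusted p = 0.0392) and without cKO replicate 2 it was 0.37 (0.0293). Without Control replicate 1 or 3 or cKO replicate 1 or 3 it was 0.29, 0.31, 0.26 and 0.30, and the call was lost (limma adjusted p = 0.0974, 0.0921, 0.0968 and 0.105).

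*Tet2* was at 0.234, 0.193 and 0.305 FPKM in the control and at 0.272, 0.316 and 0.335 FPKM in the cKO, on 50 to 89 fragments per library. The groups overlapped (two-sided exact permutation test, p = 0.2). *Tet1*, the TET of early germ cells and pluripotent cells, was at 0.055, 0.0464 and 0.0561 FPKM in the control and at 0.103, 0.168 and 0.0596 FPKM in the cKO. The groups did not overlap in FPKM, but the values rested on 11 to 38 fragments per library, and cKO replicate 3 held 14 fragments where Control replicate 3 held 15. The exact permutation p of 0.1 is the smallest that 3 against 3 libraries allow. With no filter on level, limma gave log2 fold changes of 0.076 for *Tet1*, 0.073 for *Tet2* and -0.044 for *Dnmt3l* (adjusted p = 0.342, 0.541 and 0.813).

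Shares within each family do not depend on how a library was scaled, but they do depend on the gene length used for FPKM. Of the summed DNMT FPKM *Dnmt1* held 66.3% ± 2.51 in the control and 68.8% ± 1.99 in the cKO (SD, n = 3), *Dnmt3b* 26.5% and 23.2%, *Dnmt3a* 6.80% and 7.79%, and *Dnmt3l* 0.323% and 0.256%. The share of *Dnmt3a* did not overlap between the groups, at 6.68% to 6.93% in the control and 7.31% to 8.32% in the cKO, and its exact permutation p of 0.1 (two-sided, the smallest possible) became 0.7 after Benjamini-Hochberg adjustment over 7 shares. *Dnmt3b* per unit of *Dnmt3a* was 3.90 ± 0.357 in the control and 3.001 ± 0.509 in the cKO, without overlap. *Tet3* held 97.2% ± 0.626 of the summed TET FPKM in the control and 96.8% ± 0.686 in the cKO (exact permutation p = 0.6). No share differed past the adjusted threshold, which this number of libraries cannot reach. The sums themselves were 93.0 ± 6.35 and 108.1 ± 10.4 FPKM for the DNMT genes and 10.5 ± 0.434 and 13.3 ± 1.00 FPKM for the TET genes.

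Across libraries, in all 5 tested members the lowest cKO library was replicate 2 and the lowest control library was replicate 1. Over the 6 libraries, as a description on log2(FPKM + 1) that mixes both groups and their depth, *Dnmt1* correlated at Pearson r = 0.976 with *Tet3*, 0.944 with *Dnmt3a*, 0.943 with *Uhrf1* and 0.440 with *Dnmt3b*. *Dnmt3b* had r of 0.297 with *Dnmt3a* and 0.435 with *Tet3*. Since both groups enter, the difference between them is part of each r. The genes most like *Dnmt1* were *Ldlrad3* (r = 0.996), *Actr3* and *Ppp1r15b* (both 0.994), and 795 genes had r over 0.9 with it. The closest to *Uhrf1* were *Gm5641* (0.997), *Gm45774* (0.991) and *Ppp1r16b* (0.987), with 231 genes over 0.9. *Dnmt3a* was closest to *Phlda2*, *Nit2* and *Aggf1* (all 0.997), with 1185 genes over 0.9, and *Tet3* to *Map3k4* (0.999), *Pitx3* and *Itgb3* (both 0.998), with 984. *Dnmt3b* was closest to *Naa10* and *Rab35* (both 0.985) and *Llgl1* (0.979), with 122. A high r was thus common among these 6 libraries.

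**Figure D3:**
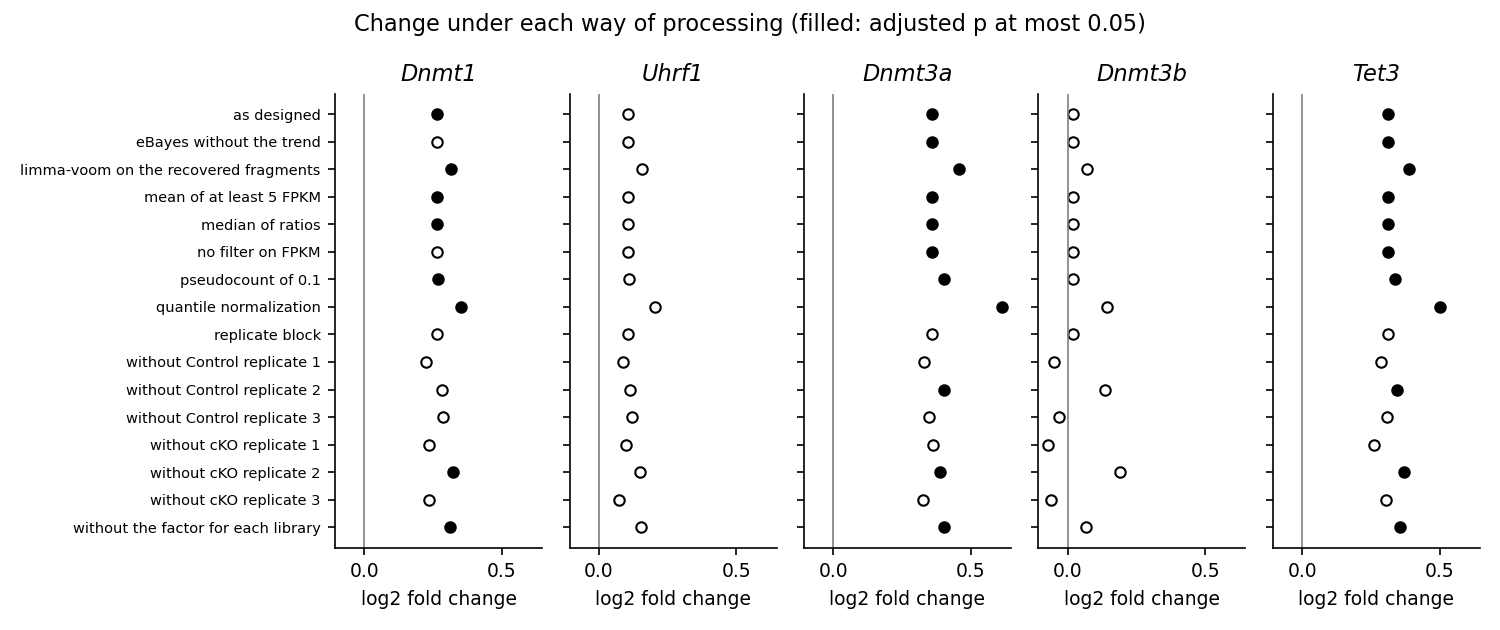
The log2 fold change of each tested gene (x axis, cKO against control) under the design used and each alternative (y axis); filled points passed an adjusted p of 0.05. *Dnmt1*, *Dnmt3a*, *Tet3* and *Uhrf1* stay above 0 under every setting shown, and *Dnmt3b* lies on both sides of 0.

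The genes lie on 7 chromosomes. In GENCODE M21 (GRCm38), whose coordinates match those of the table for each member, *Dnmt1* (ENSMUSG00000004099) spans chr9:20907209-20959888 on the minus strand and *Uhrf1* (ENSMUSG00000001228) chr17:56303321-56323486 on the plus strand. *Dnmt3a* (ENSMUSG00000020661) spans chr12:3806007-3914443, *Dnmt3b* (ENSMUSG00000027478) chr2:153649450-153687730 and *Dnmt3l* (ENSMUSG00000000730) chr10:78041947-78063622, all on the plus strand. *Tet1* (ENSMUSG00000047146) spans chr10:62804570-62908996, *Tet2* (ENSMUSG00000040943) chr3:133463679-133545139 and *Tet3* (ENSMUSG00000034832) chr6:83362373-83459084, all on the minus strand. *Dnmt1* has 4 protein-coding transcripts with 4 starts and *Dnmt3a* has 13 with 13 starts. *Dnmt1* is known for first exons used only in oocytes, in pachytene spermatocytes or in somatic cells. The FPKM of a gene sums all of these, so neither their starts nor their splicing could be followed.

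Since CpG is what these enzymes act on, the CpG content of their own promoters is given, from the 250 bases before each start in RefSeq (GRCm38.p6). All 8 genes were matched, with 15 windows. Over 32817 windows of all genes the median was 6 CpG and the upper quartile 16. The windows of *Dnmt3a* held 38, 40 and 15 CpG, that of *Tet2* 51, of *Dnmt3b* 21, of *Tet3* 17 and of *Tet1* 15, and those of *Uhrf1* 10 and 30. The 3 windows of *Dnmt3l* held 3 to 5. *Dnmt1* had a CpG-poor window with 2 at its most upstream start, 1 with 7 and 1 with 26. No methylation was measured here. The most upstream window of *Dnmt1* (chr9:20959889-20960138, minus strand), the CpG-rich window of *Uhrf1* (chr17:56304063-56304312, plus strand) and the first of *Dnmt3a* (chr12:3806730-3806979, plus strand), none of which touches an annotated exon, are shown to set a CpG-poor beside CpG-rich starts, with each CpG in capitals.
*Dnmt1*: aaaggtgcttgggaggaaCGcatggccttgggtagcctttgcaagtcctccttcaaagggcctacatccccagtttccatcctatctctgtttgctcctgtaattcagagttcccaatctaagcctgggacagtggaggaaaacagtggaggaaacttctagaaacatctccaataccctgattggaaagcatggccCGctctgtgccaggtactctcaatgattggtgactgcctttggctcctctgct
*Uhrf1*: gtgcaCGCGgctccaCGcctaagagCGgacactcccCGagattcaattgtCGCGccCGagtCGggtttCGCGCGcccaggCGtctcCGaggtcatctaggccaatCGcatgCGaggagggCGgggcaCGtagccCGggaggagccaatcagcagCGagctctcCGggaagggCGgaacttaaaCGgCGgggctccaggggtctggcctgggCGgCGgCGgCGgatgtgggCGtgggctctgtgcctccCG
*Dnmt3a*: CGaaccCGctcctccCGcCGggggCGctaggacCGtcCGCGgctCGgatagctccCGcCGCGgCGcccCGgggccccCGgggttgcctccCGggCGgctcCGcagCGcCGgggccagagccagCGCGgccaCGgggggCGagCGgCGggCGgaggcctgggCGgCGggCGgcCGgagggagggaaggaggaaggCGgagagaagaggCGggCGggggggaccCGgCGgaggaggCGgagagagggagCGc

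E2F factors turn on replication genes, and *Dnmt1* and *Uhrf1* act at replication, so the letters of an E2F site were searched on both strands as TTTCCCGC, TTTCGCGC, TTTGCCGC and TTTGGCGC. TTTCGCGC occurred in 2 of the 15 member windows, the CpG-rich windows of *Dnmt1* (chr9:20952624-20952873) and *Uhrf1*, and none of the 4 words occurred in the other 13. Of this *Dnmt1* window 166 bases lie in annotated exons, and of the *Uhrf1* window 0. In all promoter windows TTTCGCGC was found in 0.256% and any of the 4 in 1.86%. Those windows had a median of 6 CpG, whereas the matching windows of *Dnmt1* and *Uhrf1* held 26 and 30. Windows of like CpG content were not compared, so these shares do not measure an excess. Both matches are shown with 10 bases on either side and the matched letters in capitals, *Dnmt1* at chr9:20952825-20952852 and *Uhrf1* at chr17:56304118-56304145, both on the plus strand. A match is a description of the letters and not a measured site.
*Dnmt1*: accccggcttTTTCGCGCgcgcggaaac
*Uhrf1*: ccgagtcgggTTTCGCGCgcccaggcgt

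Close relatives of the members were measured too. *Uhrf2*, a homologue of *Uhrf1* that does not replace it in maintenance, rose from 6.67 ± 0.663 to 8.49 ± 0.359 FPKM (SD, n = 3), a log2 fold change of 0.31 (limma adjusted p = 0.047), and the call was lost when any 1 library was left out (0.24 to 0.35, limma adjusted p = 0.0757 to 0.128). *Trdmt1*, once called DNMT2 and in fact a tRNA methyltransferase, had a log2 fold change of -0.17 (limma adjusted p = 0.295). Across the 10 lists of other genes of the pathway, 117 genes were tested, 34 were higher and 14 lower, and the median log2 fold change was 0.17. Over all genes tested 11.8% were called higher and 22.2% lower, and the count of each list below is to be read beside these shares. With quantile normalization the counts were 57 higher and 7 lower. Without cKO replicate 3 they were 22 higher and 7 lower, and without Control replicate 1, Control replicate 3, cKO replicate 1 and cKO replicate 2 they were 6, 7, 9 and 8 lower. The 3 pathway lists with 0 called lower and over 2 genes tested also had 0 lower at an unadjusted p under 0.05 and with limma-voom. Of these lists, that of maintenance partners had up to 1 lower with a library left out. Some genes stand in more than 1 list, such as *Pcna* (maintenance and replication) and *Wt1* (TET partners and Sertoli cells).

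Of 11 partners of maintenance tested, 3 were higher and 0 lower, with a median of 0.23. Limma-voom called 5 higher, as did an unadjusted p under 0.05, and up to 6 were higher under another way of processing. With a library left out up to 1 was lower. *Cdca7*, which brings the remodeller HELLS to hemimethylated DNA, rose by 0.57 on the log2 scale (limma adjusted p = 0.0041), *Lig1*, the ligase of the lagging strand and a UHRF1 partner, by 0.56 (0.0016), and *Ehmt1*, a histone H3K9 methyltransferase, by 0.35 (0.012). Of 22 replication genes 9 were higher and 3 lower, with a median of 0.33. Limma-voom called 14 of them higher and quantile normalization 15, and the number lower was 1 without Control replicate 1 or 3. *Cdc6*, which loads the replicative helicase, rose by 0.57 and the helicase subunit *Mcm4* by 0.51 (limma adjusted p = 0.002 and 0.001), whereas *Gins1* fell by 0.43 and *E2f1* by 0.35 on the log2 scale (0.0075 and 0.016). *Pcna*, the sliding clamp that UHRF1 and DNMT1 bind, had a log2 fold change of 0.041 (limma adjusted p = 0.85). *E2f1* lost its call without Control replicate 1 (-0.32) or 3 (-0.34), at limma adjusted p of 0.0566 and 0.0569.

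Of 15 genes that direct de novo methylation, 4 were higher and 2 lower, with a median of 0.13. The number higher was 2 without Control replicate 1 or 2 or cKO replicate 2 or 3, and up to 7 under another way of processing. *Nsd1*, the H3K36 methyltransferase whose mark DNMT3A reads in male germ cells, rose by 0.49 (limma adjusted p = 0.0046), and *Ctcfl*, the germline paralogue of CTCF, by 0.46 (0.034). *Kdm1b*, an H3K4 demethylase needed for maternal imprints, fell by 0.38 on the log2 scale and *Piwil2*, a piRNA-binding protein, fell by 0.30 on the log2 scale (limma adjusted p = 0.03 and 0.022). Under quantile normalization neither *Kdm1b* nor *Piwil2* passed the test. The call of *Kdm1b* was lost without Control replicate 1 or 3 or cKO replicate 1 or 2 (-0.31 to -0.40), that of *Piwil2* without Control replicate 1 or cKO replicate 2 or 3 (-0.25 to -0.32), and that of *Ctcfl* without Control replicate 1 or 2 or cKO replicate 2 or 3 (0.35 to 0.48). Of 11 genes of the methyl donor cycle 3 were higher and 0 lower, with a median of 0.12, namely *Gnmt* (0.66), *Ahcy* (0.62) and *Shmt1* (0.37), of which *Ahcy* removes the S-adenosylhomocysteine that inhibits methyltransferases (limma adjusted p = 0.0069, 0.017 and 0.025). The number higher was 1 without Control replicate 3 or cKO replicate 1. *Ahcy* lost its call without Control replicate 3 or cKO replicate 1 or 2 (0.52 to 0.59), and *Shmt1* without Control replicate 1 or 3 or cKO replicate 1 or 3 (0.31 to 0.35).

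Downstream of TET, 14 genes of oxidised base removal and repair were tested, of which 5 were higher and 3 lower, with a median of -0.0051. Without Control replicate 1 or 3 or cKO replicate 1 or 3 the counts were 3 higher and 1 lower. *Gadd45g* (1.10) and *Gadd45b* (0.90), stress-induced genes also linked to demethylation, rose most (limma adjusted p = 0.0066 and 2.3e-04). *Gadd45g* was highest in cKO replicate 1, which also had the highest Sertoli marker sum, at 26.0 FPKM against 15.4 and 15.9 FPKM in cKO replicates 2 and 3, and its log2 fold change without that library was 0.87 (limma adjusted p = 0.0059). *Polb* and *Lig3*, which fill and seal the repaired gap, fell by 0.42 and 0.38 on the log2 scale (0.028 and 0.0085), and *Polb* lost its call without Control replicate 1 or 3 or cKO replicate 1 or 3 (-0.32 to -0.42) and under quantile normalization (-0.27, limma adjusted p = 0.0804). *Tdg*, the glycosylase that excises the oxidised bases TET makes, was at 5.97 ± 1.24 and 6.02 ± 2.03 FPKM (SD, n = 3; limma adjusted p = 0.97). From a list of TET partners and related genes, not all of which bind a TET, 7 were tested, with 0 higher and 1 lower. The gene called lower was *Cxxc1*, a CpG-binding protein, which fell by 0.47 on the log2 scale (limma adjusted p = 0.0077). None of this list was called higher by limma, 1 was higher at an unadjusted p under 0.05, and limma-voom called 1 higher.

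Of 10 genes tested from a list of methyl-CpG readers and relatives of the MBD family, not all of which bind methylated CpG, 1 was higher (*Zbtb33*, 0.35) and 2 were lower, *Mbd3l1* (-3.19) and *Zbtb4* (-0.32). *Mbd3l1*, a spermatid gene whose product lacks the methyl-CpG-binding domain, went from 9.86 ± 4.86 to 0.127 ± 0.119 FPKM, beside the fall of the spermatid markers (limma adjusted p = 2.4e-04). Its log2 fold change was -6.14 by limma-voom and -5.52 when 0.1 was added in place of 1, which compresses low values. *Zbtb4* was at 0.00065 under quantile normalization and lost its call when any 1 library was left out (-0.30 to -0.34), and *Zbtb33* lost its call without cKO replicate 3 (0.31). Of 14 germ cell genes that DNA methylation silences outside the germ line 3 were higher and 3 lower, with a median of 0.023. The number lower was 1 to 2 with a library left out, and 22.2% of all genes tested were called lower. *Tex19.1* and *Taf7l* rose by 0.49 each, and *Brdt* and *Mael* fell by 0.51 and 0.43 on the log2 scale (limma adjusted p = 0.0024, 0.012, 0.018 and 0.0061). Of 12 imprinted genes tested 5 were higher and 0 lower, with a median of 0.27. The number higher was 3 without Control replicate 1 or 3 or cKO replicate 1 or 3, and 10 under quantile normalization. *H19*, a noncoding RNA silenced on the paternal allele, rose from 8.28 ± 2.17 to 17.7 ± 2.81 FPKM, a log2 fold change of 1.02 (limma adjusted p = 0.0061). *Igf2r* (0.59) had the next largest change, and *Zdbf2* (0.46) and *Impact* (0.39) the smallest of those called. *Brdt* lost its call without cKO replicate 2 or 3 (both -0.47), and *Impact* without any library but Control replicate 2 (0.35 to 0.42). Somatic cells also express imprinted genes such as *H19*, and the summed peritubular markers were higher in the cKO without overlap (3.69 to 6.44 against 7.04 to 8.16 FPKM), while the Sertoli and Leydig sums overlapped. cKO replicate 1 had the highest Sertoli sum (88.3 FPKM, against 38.7 and 52.7 FPKM in cKO replicates 2 and 3) and the highest *H19* (20.4 FPKM, against 14.8 and 17.8 FPKM). Without this library the log2 fold change of *H19* was 0.92 (limma adjusted p = 0.0251). The part of these cells was not tested, and methylation at these genes was not measured.

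**Figure D4:**
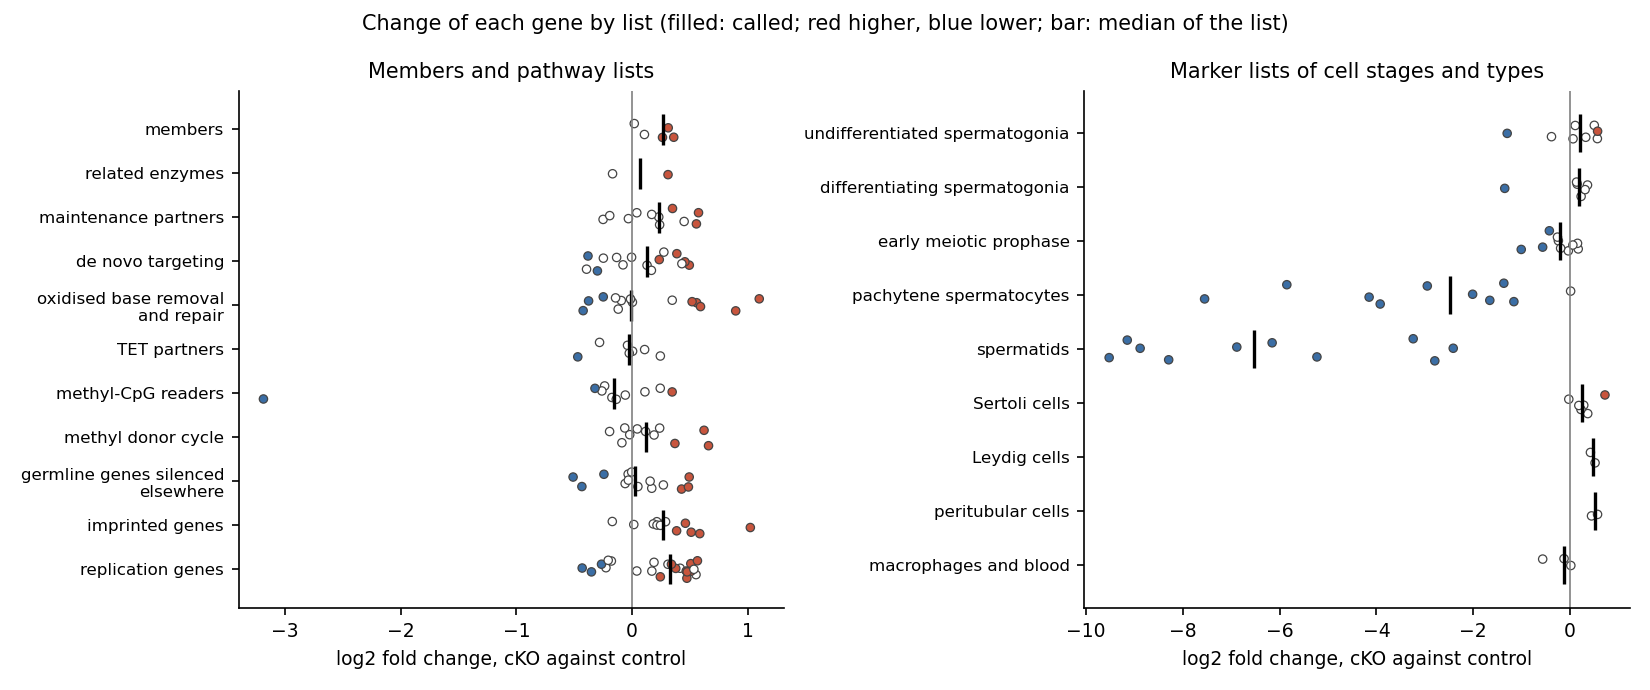
The log2 fold change (x axis, cKO against control) of each tested gene of the members and pathway lists (left) and of the marker lists (right); filled points were called (red higher, blue lower) and bars are list medians. The members tested lie between 0.019 and 0.36, with a median of 0.26, and the spermatid markers reach down to -9.52.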

How the data were processed

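RNA-seq of STRA8+ cells was available as 1 table of FPKM for 54532 genes in 3 control and 3 cKO libraries. Groups and replicate numbers came from the labels. The FPKM were made by the authors with HISAT2 2.0.5 on mm10 per the labels' processing notes. The counter, its strand setting and a factor of 0.971 to 1.05 that each library carries are not given in the sources used here. FPKM times gene length gave whole multiples of 1 step (within 0.02) for 100% of values, from which fragments were recovered (14447887 to 17310353 per library). The deposited gene_length column gave the length of each gene in bases, and it is not a measurement.

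Tests used log2 of the deposited FPKM plus 1, which understates the change of low genes. A gene needed a mean of 1 FPKM over the 6 libraries, which 15451 genes reached. They were fitted in limma 3.58.1 (R 4.3.3, two-sided, moderated with an intensity trend). P-values were adjusted over all of them by the Benjamini-Hochberg method, and the threshold was 0.05. Shares and low genes were tested with exact permutation tests (all 20 splits, scipy 1.17.1). Alternatives were a pseudocount of 0.1, no filter or a mean of 5 FPKM, median of ratios, quantile normalization, FPKM without the library factor, no trend, the replicate number as a block, limma-voom on the recovered fragments, and leaving out each library. Members and lists were chosen with earlier results of these data known. Named genes were all members, every called gene of a list with up to 4, otherwise the 2 largest and 2 smallest called changes, the 3 nearest patterns, and *Dnmt3c*, *Trdmt1*, *Uhrf2*, *Tdg*, *Pcna*, *Stra8* and *Srsf1*. Promoters were taken from RefSeq and gene models from GENCODE M21.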

Additional observations from a re-analysis of the deposited data

How the results depend on the processing

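*Dnmt1*, *Uhrf1*, *Dnmt3a* and *Tet3* kept their sign under all 15 alternatives, with log2 fold changes of 0.22 to 0.35, 0.072 to 0.20, 0.33 to 0.61 and 0.26 to 0.50. The call of *Dnmt1* (0.26) was lost without the trend (limma adjusted p = 0.0733) and without the filter on FPKM (0.063), where more genes were tested. Leaving out 1 library gave 0.22 to 0.32 for *Dnmt1*, 0.33 to 0.40 for *Dnmt3a*, 0.26 to 0.37 for *Tet3* and -0.072 to 0.19 for *Dnmt3b*, and left 0 to 3 members called higher. Fewer libraries then entered the fit.

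Same-numbered libraries did not deviate together (correlations of -0.0014, -0.11 and 0.016), so the numbers were not taken as pairs. With the replicate number as a block no member was called higher (0), with adjusted p of 0.113 for *Dnmt1* at 0.26, 0.0823 for *Dnmt3a* at 0.36 and 0.112 for *Tet3* at 0.31. The block also left 891 genes called higher, 20 pathway genes higher and 6 lower, and 1 marker higher.

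Of all genes 4919 were called higher under quantile normalization and 965 to 1752 with a library left out, and 1950 were called lower with a mean of 5 FPKM. Pathway genes called higher were 57 under quantile normalization and 22 to 32 with a library left out, and those called lower were 7 under quantile normalization, 9 with no filter and 6 to 11 with a library left out. Markers called higher were 4 without the trend, 8 with limma-voom, 12 under quantile normalization, 6 without the library factor, 1 with a mean of 5 FPKM, 1 with no filter and 0 to 5 with a library left out.

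Changes of sign came only in values that had not been called, apart from *Zbtb4* (0.00065 under quantile normalization). *Trdmt1* was 0.13 under quantile normalization. *Tdg* was 0.040 with limma-voom, 0.27 under quantile normalization, 0.028 without the library factor and -0.24 to 0.14 with a library left out. *Pcna* ranged from -0.082 to 0.17 with a library left out, and the differences in share from -0.14 to 0.014 percentage points for *Dnmt3l*, -0.30 to 0.27 for *Tet2* and -0.63 to 0.058 for *Tet3*. The cause of these changes was not tested. Depth limits *Dnmt3l*, *Tet1* and *Tet2*, with 5 to 89 fragments per library.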
